A study of Homo sapiens with 6 samples.

Results

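Adhesion G protein-coupled receptors were examined in pancreatic cancer cells that differed in surface L1CAM. The genes were chosen by name as ADGRF1, ADGRF4, ADGRG1, ADGRG6, ADGRL1, ADGRL2, ADGRE5, ADGRB2 and ADGRA3, with ADGRF1 singled out for its difference between the groups. Of these 9 genes, 8 were found among the 19469 genes of the count table, and ADGRF4 was not analysed here. The family as listed here has 33 genes, of which 18 were found, so that 10 other adhesion receptors could be set beside the 8.

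RNA came from L3.6pl, an established human pancreatic cancer line of adenosquamous type, which the sample characteristics write as L6.6pl. The cells were untreated and were sorted by flow cytometry on surface L1CAM, a cell adhesion molecule, into an L1CAM-positive population (L1high) and an L1CAM-negative population (L1low), with 3 libraries each. Both populations came from 1 cell line grown without stroma, and although the study's methods state in general that experiments were repeated independently, the sources used here do not say whether these replicates were separate cultures, so the p-values measure the spread between these libraries, which may be technical. The study's own comparison left out L1high replicate 3 and gives no reason. The values below were therefore computed first over 5 libraries and then over all 6.

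Adhesion receptors have a long extracellular region that binds matrix or proteins on neighbouring cells, joined to a seven-helix membrane part. Most of them cut themselves at a site close to the membrane, and the short stretch exposed by removal of the outer fragment acts as a tethered agonist that activates G proteins. In epithelia and nerve they are known for roles in adhesion, polarity and the sensing of mechanical force.

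The libraries held between 16334610 and 21064685 counts, so that 1 count was worth 0.0471 to 0.0609 CPM (a gene's share of all counts of a library, after adjustment of the totals by TMM). L1CAM, the gene of the sorting marker, stood at 84.0, 69.8 and 89.5 CPM in L1high replicates 1, 2 and 3 and at 17.7, 23.7 and 20.0 CPM in L1low replicates 1, 2 and 3, and its log2 fold change of L1low over L1high was -1.90 (standard error 0.12). All 6 epithelial markers (EPCAM, CDH1, KRT8, KRT18, KRT19, KRT7) were found, with summed levels of 4232 to 4785 CPM in L1high and 4779.7 to 5129.8 CPM in L1low libraries. In the edgeR test described below, over 5 libraries, KRT19 was higher in L1low (log2 fold change 0.69, adjusted p = 6.8e-05) and EPCAM lower (-0.37, adjusted p = 0.013). Markers of other cell types were sparse, with 2 of 6 found for leukocytes (19.7 to 24.0 CPM summed in L1high, 15.6 to 18.3 in L1low), 1 of 5 for endothelium (11.3 to 11.9 and 13.2 to 14.7 CPM), 2 of 6 for fibroblasts (85.0 to 97.5 and 138 to 159 CPM, mostly LUM) and 0 of 6 for acinar cells. The defining leukocyte marker PTPRC was not among those found. Of the markers found for other cell types, LUM was higher in L1low (log2 fold change 0.74, adjusted p = 3.1e-04 by edgeR) and ITGAX lower (-0.92, adjusted p = 0.0041 by edgeR). Of 8 genes that respond to handling stress, 4 passed the test described below as higher in L1low (FOS, FOSB, EGR1 and ATF3). Of all genes, 4.41% were called as higher. JUN, HSPA1A, HSPA1B and DNAJB1 did not pass, at log2 fold changes of 0.14, 0.08, 0.02 and 0.20 over 5 libraries. Summed levels over the 8 were 6796 to 7238 CPM in L1high against 8566 to 9057 CPM in L1low. The part of these markers and stress genes in the results below was not tested.

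ADGRF1 (GPR110, ENSG00000153292, chr6:46997708-47042350 on GRCh38, minus strand) belongs to subfamily F and is known as the receptor for synaptamide, an amide of docosahexaenoic acid, in developing neurons. It was counted 6, 5 and 9 times in L1high replicates 1, 2 and 3 and 46, 35 and 22 times in L1low replicates 1, 2 and 3. In CPM these were 0.283, 0.243 and 0.548 for L1high and 2.53, 1.95 and 1.24 for L1low. Every L1low library lay above every L1high library, with the highest L1high library (replicate 3) and the lowest L1low library (replicate 3) nearest to each other. The exact 95% Poisson interval, which covers counting error only, ran from 4.12 to 17.1 counts for that L1high library and from 13.8 to 33.3 counts for that L1low library, so the intervals of these 2 counts overlapped. For replicates 1 and 2 they ran from 2.20 to 13.1 and 1.62 to 11.7 counts in L1high and from 33.7 to 61.4 and 24.4 to 48.7 counts in L1low. The intervals are for raw counts, without adjustment for library totals. Since ADGRF1 was chosen for its difference between the groups, nothing is read from them.

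The mean of ADGRF1 was 0.358 ± 0.166 CPM in L1high and 1.91 ± 0.646 CPM in L1low (SD, n = 3). Its log2 fold change was 2.84 (standard error 0.47) over 5 libraries and 2.44 (standard error 0.41) over all 6, where L1high replicate 3, the L1high library with most ADGRF1, enters. Over 5 libraries this was the highest log2 fold change of the 19469 genes. The gene was chosen for this difference, so the value is a description, and no test of it is used as support. Every gene of the table exceeded 1 CPM in at least 2 libraries. ADGRF1 exceeded that limit in 3 L1low and 0 L1high libraries and so was retained through L1low alone. In bulk libraries such as these, fewer cells with the transcript and less transcript per cell cannot be told apart.

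The windows around the annotated starts of ADGRF1 and ADGRG1, from 250 bases before to 50 after, are shown because ADGRF1 is the gene singled out here and ADGRG1 had the next highest log2 fold change of the members. They are RefSeq sequence of GRCh38.p14, read 5′ to 3′ on the strand of the gene, and capitals mark matches to the motifs searched on both strands, TGANTCA (AP-1), CATTCC (TEAD) and TATAAA (a core promoter element).
ADGRF1, chr6:47042283-47042582, minus strand: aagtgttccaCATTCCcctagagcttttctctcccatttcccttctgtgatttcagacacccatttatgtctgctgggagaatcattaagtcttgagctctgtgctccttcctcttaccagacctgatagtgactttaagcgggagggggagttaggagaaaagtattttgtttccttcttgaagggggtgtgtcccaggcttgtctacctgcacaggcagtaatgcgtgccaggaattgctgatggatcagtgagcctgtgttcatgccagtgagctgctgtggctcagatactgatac
ADGRG1, chr16:57628380-57628679, plus strand: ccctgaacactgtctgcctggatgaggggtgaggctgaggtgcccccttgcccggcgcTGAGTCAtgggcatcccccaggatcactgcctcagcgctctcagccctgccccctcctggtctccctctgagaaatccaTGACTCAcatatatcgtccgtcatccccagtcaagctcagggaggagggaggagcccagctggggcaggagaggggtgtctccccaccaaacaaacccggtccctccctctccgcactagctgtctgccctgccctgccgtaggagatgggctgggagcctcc

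The ADGRF1 window held 1 match to CATTCC and none to TGANTCA or TATAAA. ADGRG1 had 3 such windows for its alternative starts, all inside the annotated gene body. The one shown held 2 matches to TGANTCA, while the other windows held none of the 3 motifs. Of 35116 windows over all genes, 14.0% held CATTCC, 7.71% held TGANTCA and 11.5% held TATAAA. Of the 16669 windows of genes in the count table, these shares were 11.6%, 5.39% and 6.71%. The shares are per window, and a gene can have several. A window was found for 6 of the 8 members. A match describes letters in a window and was not tied to binding or to the levels measured.

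**Figure D1:**
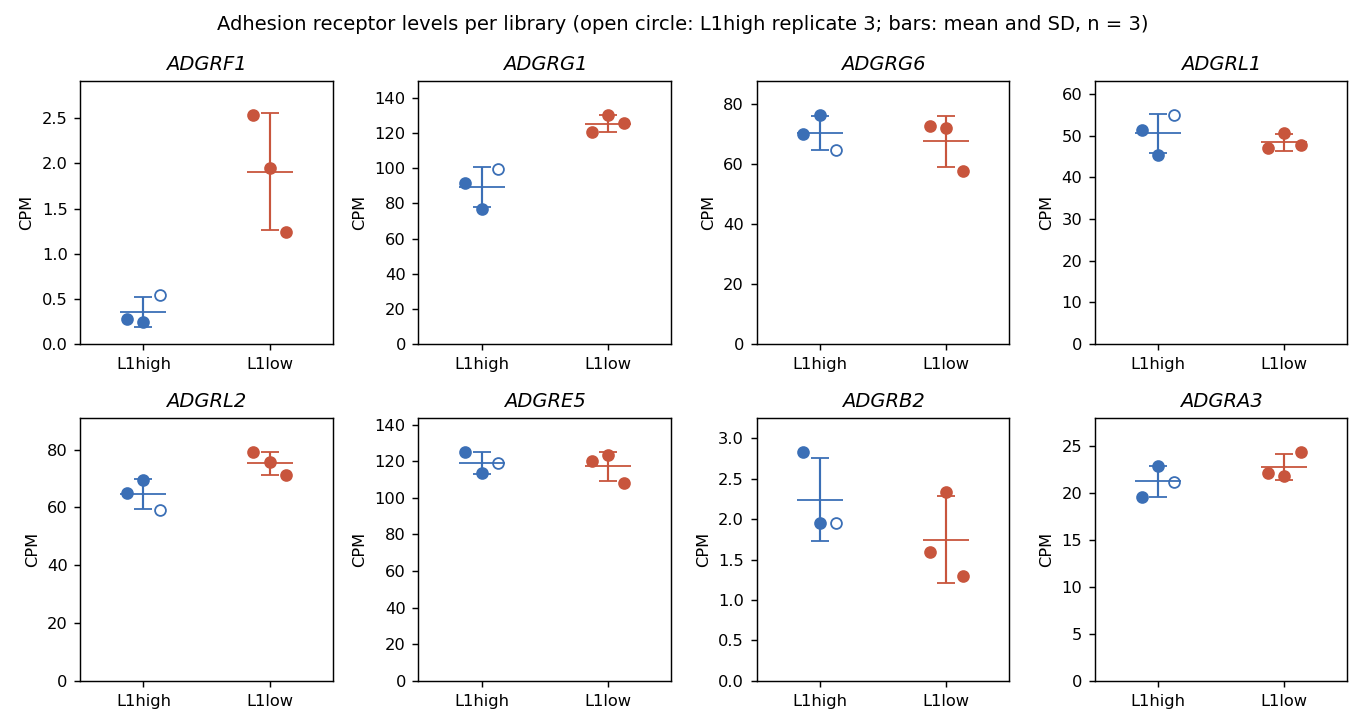
CPM of the 8 chosen adhesion receptors in each library of L1high (blue) and L1low (red), with the mean and SD of 3 libraries as bars and L1high replicate 3 as an open circle. All 3 L1low points lie above all 3 L1high points for ADGRF1 (1.24 to 2.53 against 0.243 to 0.548 CPM), ADGRG1 and ADGRL2, and the points of the other 5 genes overlap.

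Subfamily G was represented by ADGRG1 and ADGRG6. ADGRG1 (GPR56, ENSG00000205336, chr16:57610652-57665580, plus strand) binds collagen III and transglutaminase 2 and is known for its part in the development of the cerebral cortex and of myelin. It stood at 91.8, 77.1 and 99.4 CPM in L1high and at 121, 130 and 126 CPM in L1low, and the groups did not overlap. The means were 89.4 ± 11.3 and 125 ± 4.75 CPM (SD, n = 3), with a log2 fold change of 0.58 (standard error 0.09) over 5 libraries and 0.49 (standard error 0.09) over all 6. Every alternative setting gave a positive value, from 0.39 to 0.71.

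ADGRG6 (GPR126, ENSG00000112414, chr6:142301854-142446266, plus strand) binds collagen IV, laminin-211 and the prion protein and is needed for myelination by Schwann cells. It stood at 70.0, 76.2 and 64.7 CPM in L1high and 72.7, 72.0 and 57.8 CPM in L1low. The groups overlapped, and the lowest value was that of L1low replicate 3. The log2 fold change was -0.11 (standard error 0.11) over 5 libraries and -0.06 (standard error 0.10) over all 6.

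The latrophilins ADGRL1 and ADGRL2 bind teneurins and FLRT proteins on other cells. ADGRL1 (ENSG00000072071, chr19:14147743-14206187, minus strand), found as the receptor of a spider toxin, stood at 51.3, 45.4 and 54.8 CPM in L1high and 46.9, 50.6 and 47.6 CPM in L1low. These ranges overlapped, and the log2 fold change was 0.01 (standard error 0.09) over 5 libraries and -0.06 (standard error 0.09) over all 6. ADGRL2 (ENSG00000117114, chr1:81306147-81993932, plus strand) stood at 65.1, 69.5 and 59.2 CPM in L1high and 79.2, 75.6 and 71.2 CPM in L1low. Its groups did not overlap, although the gap between L1high replicate 2 and L1low replicate 3 was narrow, and the log2 fold change was 0.17 (standard error 0.09) over 5 libraries and 0.22 (standard error 0.08) over all 6.

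ADGRE5 (CD97, ENSG00000123146, chr19:14380501-14408725, plus strand), a receptor for CD55 that is common on leukocytes and carcinoma cells, stood at 125, 113 and 119 CPM in L1high and 120, 123 and 108 CPM in L1low. The groups overlapped, with a log2 fold change of -0.02 (standard error 0.09) over 5 libraries and -0.02 (standard error 0.07) over all 6. ADGRE5 and ADGRL1 lie 174 kb apart on chromosome 19.

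The remaining members were an orphan receptor and a receptor best known from brain. ADGRA3 (GPR125, ENSG00000152990, chr4:22345071-22516066, minus strand), whose inner end binds the scaffold protein DLG1, stood at 19.6, 22.9 and 21.1 CPM in L1high and 22.1, 21.8 and 24.3 CPM in L1low, with a log2 fold change of 0.11 (standard error 0.12). ADGRB2 (ENSG00000121753, chr1:31727117-31764893, minus strand) was counted 60, 40 and 32 times in L1high and 29, 42 and 23 times in L1low, or 2.83, 1.95 and 1.95 CPM against 1.60, 2.34 and 1.30 CPM. The groups overlapped for both genes, and the log2 fold change of ADGRB2 was -0.44 with a standard error of 0.31.

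In all, 5 of the 8 members had a positive and 3 a negative log2 fold change over 5 libraries, with a median of 0.06 (0.04 over all 6 libraries) beside 0.00 over all 19469 genes. By the quasi-likelihood test of edgeR with Benjamini-Hochberg correction over all genes at an adjusted p under 0.05, 2 members (ADGRF1 and ADGRG1) would count as called, both higher in L1low, which for ADGRF1 follows from how it was chosen. Of all genes, 7.57% were called, 4.41% as higher and 3.15% as lower. All 6 libraries gave the same 2 members, beside 7.95% of all genes, 4.58% as higher and 3.37% as lower. Without L1high replicate 2, which leaves 1 L1high library, the log2 fold change of ADGRF1 was 2.74. Levels did not overlap between the groups, with L1low above, for 3 of the 8 members and for 15.2% of all genes. Since the members were chosen with this contrast known, nothing is read from these counts.

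**Figure D2:**
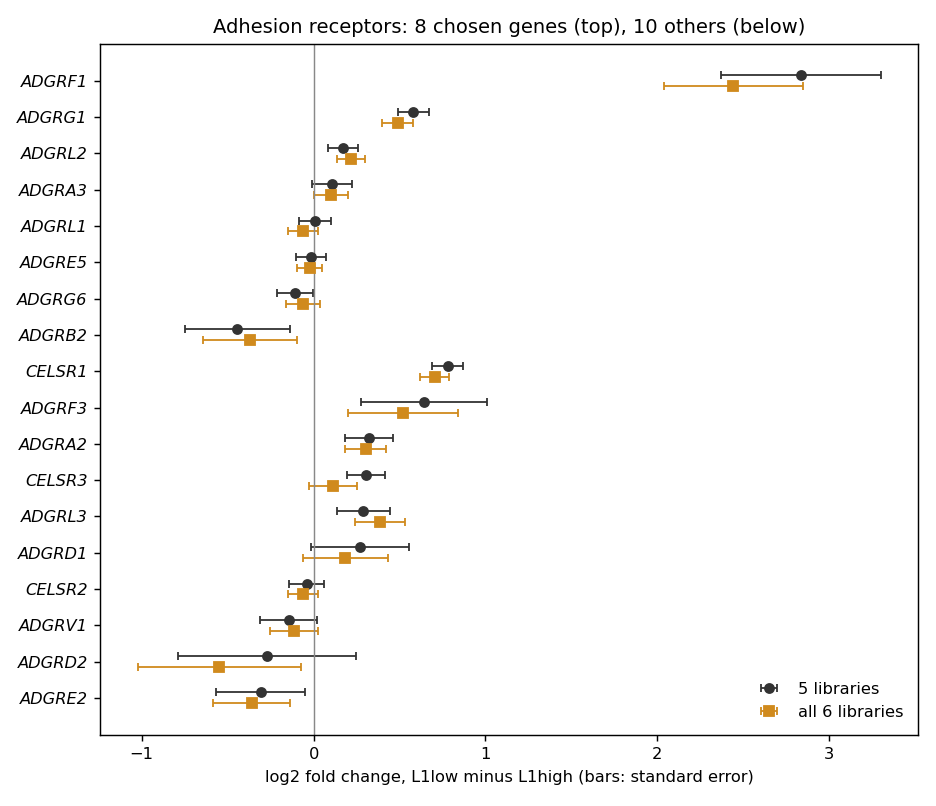
Log2 fold change of L1low over L1high for the 8 chosen adhesion receptors (upper rows) and the 10 others (lower rows), over 5 libraries (circles) and all 6 (squares), with standard errors as bars. ADGRF1 lies far to the right at 2.84 and 2.44 with the widest bars among the chosen genes, ADGRG1 and CELSR1 lie at 0.58 and 0.78 over 5 libraries, and the other receptors lie between -0.44 and 0.64.

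Levels can be compared between receptors only per length. Per kb of the union of exons, ADGRE5 was the most abundant of the 18 receptors at 22.1 ± 1.09 CPM per kb in L1high and 21.8 ± 1.45 in L1low (SD, n = 3). ADGRG1 followed at 9.93 ± 1.26 and 13.9 ± 0.528 CPM per kb. ADGRF1 stood at 0.0289 ± 0.0134 and 0.154 ± 0.0522 CPM per kb, the 18th and the 17th of the 18 receptors, although per kb of the canonical transcript it was 14th in L1low, at 0.351 CPM per kb. It made up 0.0438% ± 0.0191 of the summed level of the family in L1high and 0.210% ± 0.0673 in L1low, against 33.7% ± 0.889 and 29.7% ± 0.780 for ADGRE5. The summed level of the 18 receptors was 67.2, 62.1 and 67.3 CPM per kb in L1high and 73.4, 76.2 and 69.7 in L1low, where L1low lay above. This was not shared by all abundant receptors. The means of ADGRG1 and of CELSR1 (5.64 in L1high, 9.19 in L1low) were higher in L1low. Those of ADGRE5, ADGRG6 (8.30 and 7.97), ADGRL1 (5.95 and 5.70) and CELSR2 (4.04 and 3.87) were slightly lower.

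The members ran in the order ADGRE5, ADGRG1, ADGRG6, ADGRL1, ADGRL2, ADGRA3, ADGRB2 and ADGRF1 in both groups. Neighbours in that order whose ranges over 3 libraries overlapped were ADGRG1 with ADGRG6 and ADGRL2 with ADGRA3 in L1high, and ADGRB2 with ADGRF1 in L1low. The order depended on the length used. With the length of the canonical transcript, ADGRL2 stood at 10.1 CPM per kb in L1low and moved above ADGRG6 (9.89) and ADGRL1 (6.18), and ADGRF1 (0.351) stood above ADGRB2 (0.306), with overlapping ranges for ADGRL2 with ADGRG6 and for ADGRF1 with ADGRB2.

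**Figure D3:**
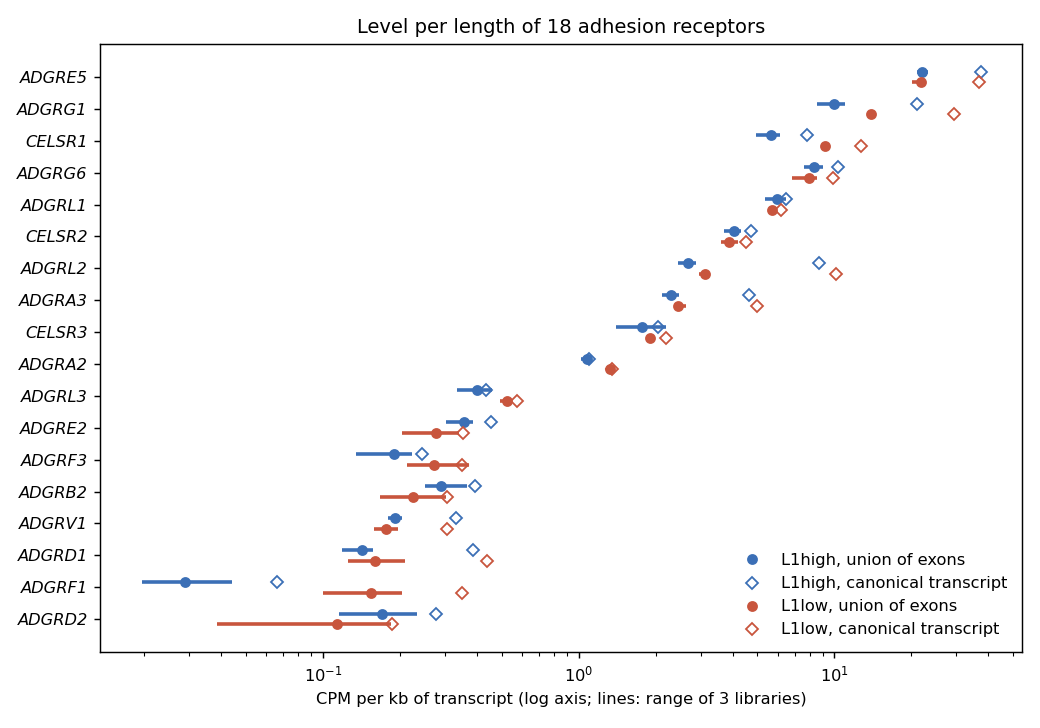
Mean CPM per kb on a log axis for the 18 adhesion receptors in L1high (blue) and L1low (red), as filled circles per kb of the union of exons with the range of 3 libraries as lines, and as diamonds per kb of the canonical transcript. ADGRE5 is at the top near 22 CPM per kb in both groups, and ADGRF1 has the widest gap between the groups, from 0.0289 to 0.154.

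Among the 10 adhesion receptors outside the chosen list, 1 (10%, beside 7.57% of all genes) passed the test over 5 libraries, and this was CELSR1 (ENSG00000075275, chr22:46360834-46537620, minus strand), a receptor of planar cell polarity. It stood at 93.6, 79.2 and 98.7 CPM in L1high and 147, 152 and 143 CPM in L1low, with no overlap. The means were 90.5 ± 10.1 and 147 ± 4.11 CPM (SD, n = 3). Its log2 fold change was 0.78 ± 0.09 (SE) over 5 libraries, at an adjusted p = 1.6e-04 in the quasi-likelihood test of edgeR after Benjamini-Hochberg correction. Over all 6 it was 0.70 (adjusted p = 3.5e-04 in the same edgeR test). It passed under all 16 alternatives, of which 1, the fit without a filter, equals the main fit. Its relatives CELSR2 and CELSR3 did not pass, at log2 fold changes of -0.04 (standard error 0.10) and 0.30 (standard error 0.11), and the difference from CELSR1 was not tested.

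ADGRF3, the other receptor of subfamily F that was found, was counted 26, 16 and 21 times in L1high and 24, 22 and 38 times in L1low. Its groups overlapped and it did not pass, at a log2 fold change of 0.64 with a standard error of 0.37. Of the other receptors that did not pass, ADGRA2, known from brain vessels, stood at 0.32 (standard error 0.14) and ADGRL3, the third latrophilin, at 0.29 (standard error 0.15). Both were higher in every L1low library than in any L1high library. The log2 fold changes of ADGRD1, ADGRD2, ADGRE2 and ADGRV1 were 0.27, -0.27, -0.31 and -0.14, with standard errors of 0.29, 0.52, 0.26 and 0.17. The median over these 10 receptors was 0.28 over 5 libraries and 0.15 over all 6.

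Ligands and partners of the receptors were taken from a list of 28 genes, of which 19 were found. Of these, 5 passed the test as higher in L1low (TENM2, COL4A1, COL4A2, LAMA2 and DOCK1) and 1 as lower (CD55), both over 5 and over all 6 libraries. That is 31.6% of those found, beside 7.57% of all genes. The number was 5 when L1high replicate 3 replaced replicate 1 and 8 when it replaced replicate 2. Since the list was chosen with earlier results of these data known, nothing is read from this share. The median log2 fold change of the 19 was 0.18, with 14 values above 0 and 5 below. CD55 (ENSG00000196352, chr1:207321519-207386804, plus strand), a surface inhibitor of complement and the ligand of ADGRE5, was the abundant one of these genes. It stood at 1790 CPM in L1high replicate 1, 1994 in replicate 2 and 1781 in replicate 3, and at 1234, 1195 and 1215 CPM in L1low. No libraries overlapped between the groups, and the L1low libraries lay close together. The log2 fold change was -0.63 ± 0.07 (SE), at an adjusted p = 1.3e-04 in the quasi-likelihood test of edgeR after Benjamini-Hochberg correction, and it passed under all 16 alternatives, with values from -0.71 to -0.55. Its receptor ADGRE5 stood at -0.02 on the same scale. Per kb of the union of exons, CD55 stood at 181 ± 11.8 CPM per kb in L1high and 118 ± 1.86 in L1low (SD, n = 3), beside 22.1 and 21.8 for ADGRE5. The distance between the 2 genes depended on the length used. Per kb of the canonical transcript, CD55 stood at 716 and 469 and ADGRE5 at 37.3 and 36.7 in L1high and L1low.

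TENM2 (ENSG00000145934, chr5:166979029-168264157, plus strand), a teneurin and a ligand of the latrophilins, stood at 17.8, 17.1 and 19.4 CPM in L1high and 46.8, 45.7 and 49.3 CPM in L1low. The groups lay far apart next to their spread. The log2 fold change was 1.44 ± 0.10 (SE), at an adjusted p = 3.9e-06 in the quasi-likelihood test of edgeR after Benjamini-Hochberg correction over 5 libraries and 1.39 (adjusted p = 4.7e-06) over all 6, and it passed under all 16 alternatives. The other ligands of latrophilins that were found did not pass. Their log2 fold changes were 0.33 (standard error 0.12) for TENM3, 0.04 (standard error 0.28) for FLRT2 and 0.23 (standard error 0.13) for FLRT3. All L1low libraries lay above all L1high libraries for TENM3 and FLRT3, and the groups overlapped for FLRT2.

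**Figure D4:**
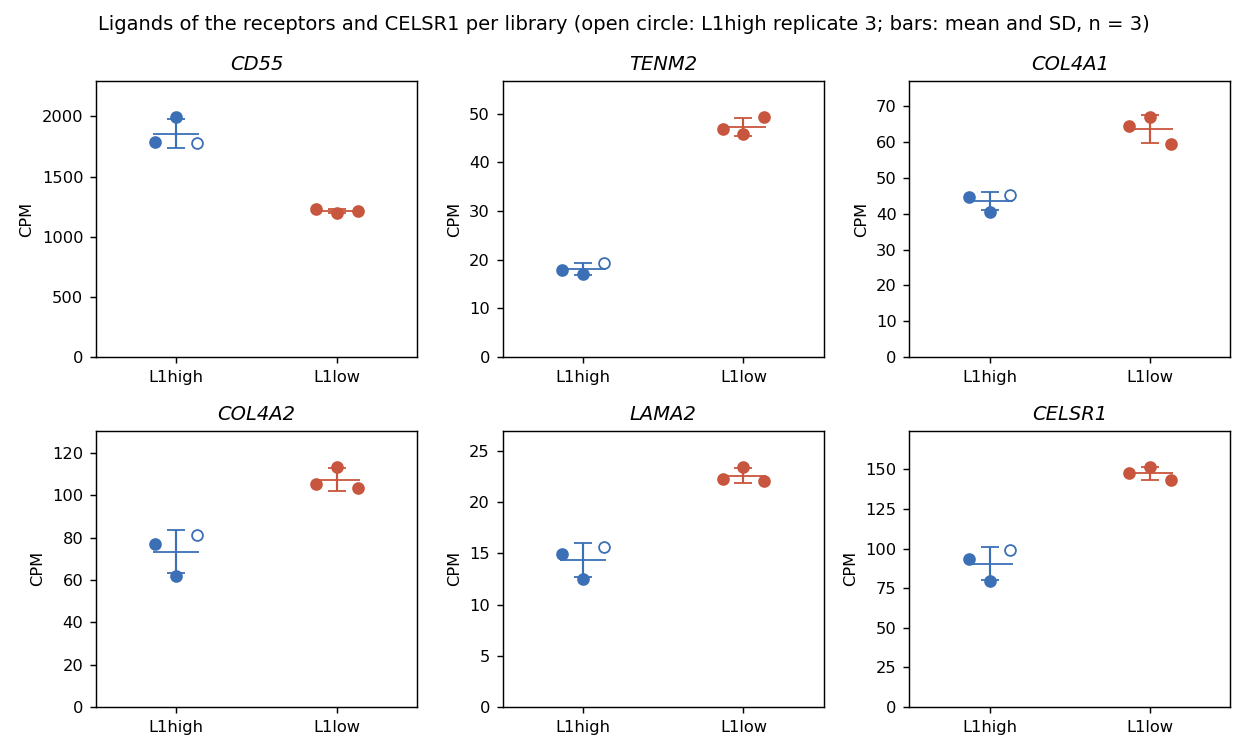
CPM of 5 ligand genes (CD55, TENM2, COL4A1, COL4A2 and LAMA2) and of CELSR1 in each library of L1high (blue) and L1low (red), with the mean and SD of 3 libraries as bars and L1high replicate 3 as an open circle. The groups do not overlap in any panel, and CD55 alone is lower in L1low.

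Of the genes for matrix ligands of ADGRG6, COL4A1 and COL4A2 of collagen IV and LAMA2 of laminin-211 were higher in L1low. The other chains of laminin-211 were not examined here. COL4A1 stood at 44.5, 40.6 and 45.2 CPM in L1high and 64.5, 66.9 and 59.4 CPM in L1low, with a log2 fold change of 0.59 ± 0.09 (SE), at an adjusted p = 0.0021 in the quasi-likelihood test of edgeR after Benjamini-Hochberg correction. COL4A2, the partner chain in the collagen IV trimer, stood at 77.2, 61.9 and 81.3 CPM in L1high and 105, 114 and 103 CPM in L1low, with 0.64 ± 0.10 (SE), at an adjusted p = 0.0020 in the same edgeR test. LAMA2, the alpha chain of laminin-211, stood at 14.9, 12.5 and 15.7 CPM in L1high and 22.3, 23.5 and 22.0 CPM in L1low, with 0.73 ± 0.12 (SE), at an adjusted p = 0.0027 in the same edgeR test. None of the 3 genes overlapped between the groups. COL4A1 and LAMA2 each passed under 15 of 16 alternatives. Without L1high replicate 2, which leaves 1 L1high library, their log2 fold changes were 0.52 and 0.61. COL4A1 and COL4A2 start head to head on opposite strands of chromosome 13 and their annotated bodies overlap, and the strand option of the counting is not given in the sources used here. PRNP, the prion protein, did not pass over 5 libraries, at 0.17 with a standard error of 0.08, although its groups did not overlap, with L1low above.

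The ligands of ADGRG1 did not pass. COL3A1, the chain of collagen III, was counted 27, 21 and 29 times in L1high and 20, 29 and 39 times in L1low, with overlapping groups and a log2 fold change of 0.52 (standard error 0.35). TGM2, transglutaminase 2, gave 0.01 (standard error 0.11) over 5 libraries and -0.07 (standard error 0.10) over all 6. The tetraspanins CD81 and CD9, which sit beside ADGRG1 in the membrane, gave 0.18 and 0.20 with standard errors of 0.08 each. Neither passed, although the groups of both did not overlap, with L1low above.

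**Figure D5:**
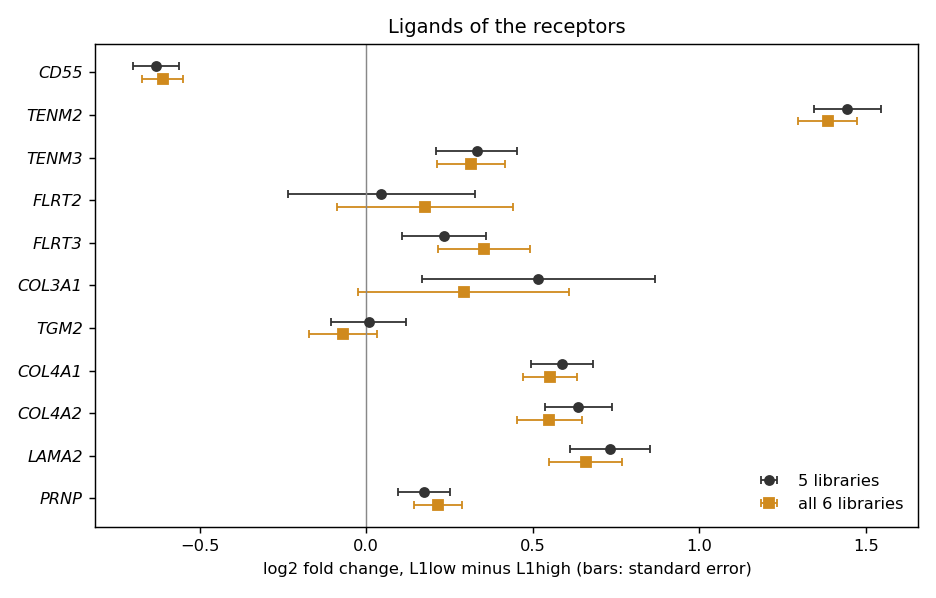
Log2 fold change of L1low over L1high for the 11 ligands of the members that were found, over 5 libraries (circles) and all 6 (squares), with standard errors as bars. CD55 lies left of 0 at -0.63, TENM2 lies furthest right at 1.44, and COL4A1, COL4A2 and LAMA2 lie between 0.59 and 0.73 over 5 libraries.

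DOCK1, an exchange factor for RAC that acts with ELMO proteins downstream of subfamily B, stood at 58.6, 56.4 and 57.2 CPM in L1high and 69.0, 69.8 and 75.3 CPM in L1low. Its log2 fold change was 0.32 ± 0.08 (SE), at an adjusted p = 0.038 in the quasi-likelihood test of edgeR after Benjamini-Hochberg correction, and it passed under 10 of 16 alternatives. Every L1low library lay above every L1high library. ELMO1, its partner, gave -0.39 (standard error 0.18) and did not pass, although every L1low library lay below every L1high library.

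Signal transducers that receptors of this kind can use (G protein subunits, exchange factors, arrestins, receptor kinases, phospholipases and cyclases) were taken from a list of 42 genes, of which 39 were found. Of these, 2 (5.13%) were called, both higher in L1low, beside 7.57% of all genes, and the median log2 fold change was 0.06. GNAI2, an inhibitory G protein subunit, stood at 103, 88.5 and 107 CPM in L1high and 122, 125 and 126 CPM in L1low, with 0.38 ± 0.08 (SE), at an adjusted p = 0.016 in the quasi-likelihood test of edgeR after Benjamini-Hochberg correction. GNA15, a subunit that couples many receptors to phospholipase C, stood at 80.7, 84.4 and 85.5 CPM in L1high and 98.7, 109 and 104 CPM in L1low, with 0.34 ± 0.08 (SE), at an adjusted p = 0.024 in the same edgeR test. Both groups of libraries were separate for these genes. GNAI2 lost its call under 3 of the 16 alternatives and GNA15 under 4, among them the fit without L1low replicate 2.

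Within 500 kb of ADGRF1, 4 other genes were found. Of these, 1 (25%) was called over 5 libraries, beside 7.57% of all genes, and nothing is read from a share of 4 genes. TNFRSF21, a death receptor that lies 189 kb away, stood at 28.9, 27.6 and 29.8 CPM in L1high and 39.4, 38.1 and 38.2 CPM in L1low, without overlap. Its log2 fold change was 0.46 ± 0.10 (SE), at an adjusted p = 0.012 in the quasi-likelihood test of edgeR after Benjamini-Hochberg correction, and it passed under 12 of 16 alternatives. CYP39A1, SLC25A27 and CD2AP did not pass, with log2 fold changes from -0.06 to 0.15.

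Over the 6 libraries, genes whose log2 CPM followed that of ADGRF1 closely, among 17006 genes whose average log2 CPM reached 1, were USP40 (Pearson's r 0.9968), ENSG00000228830 (0.9966), MTA1-DT (0.9946) and WIPF2 (0.9925). These values were picked as among the highest of 17006 genes and describe 6 libraries that fall into 2 groups. Nothing is read from them. The log2 fold changes of these 4 genes between the groups were smaller than that of ADGRF1, from 0.17 to 0.43.

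Some members share their position with other annotated genes. ADGRE5 overlaps the lncRNA ENSG00000267379 on the opposite strand, which averaged 340 counts and gave a log2 fold change of -0.04, and ADGRL1 overlaps ADGRL1-AS1, which averaged 93.2 counts and gave 0.17. ADGRL2 holds the pseudogene ARID3BP1 on its own strand, which averaged 32.5 counts and gave -0.16. ADGRF1, ADGRG6 and ADGRA3 overlap no other annotated gene.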

How the data were processed

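RNA-seq was analysed for 3 L1high and 3 L1low libraries. Stranded mRNA libraries were read from both ends, the authors used BWA, which does not join reads over splice junctions, for alignment to GRCh38, and featureCounts assigned reads to the genes annotated in Ensembl release 94. The deposited values are raw read counts per gene. The labels also name DESeq2, hg38 and GRCh38.p13. The versions of BWA and featureCounts and the strand option of the counting are not given in the sources used here. The table keeps genes above 1 CPM in at least 2 libraries.

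From the counts, L1low was compared with L1high with edgeR 4.0.16 in R 4.3.3 (TMM, filterByExpr, quasi-likelihood test, Benjamini-Hochberg correction over all genes, calls at an adjusted p under 0.05), over the 5 libraries of the study's own table and over all 6. The standard error is the log2 fold change divided by the square root of F. The log2 CPM used a prior count of 2. Positions and lengths came from GENCODE 44, which matched 19344 of 19469 identifiers, and promoter windows from RefSeq. No pair of libraries was a duplicate, since even the closest pair had a chi-square 3.66 times its degrees of freedom.

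The members and lists were chosen with earlier results of these data known. Genes named were the members, the other adhesion receptors, ligands of members, called genes of each list and the 5 genes closest to ADGRF1, of which 1 is not reported here. CD81, CD9 and ELMO1 were named after their values were seen. On simulated data in which 200 of 19469 genes were changed, the 5-library comparison recovered 75 at a log2 change of 0.5, 182 at 1 and 200 at 2. Alternatives were DESeq2 1.42.0, other scalings and filters, other sets of libraries, the replicate number as a block, and other transcript lengths. Of the lengths, the canonical transcript was chosen after the data were seen. The fit without a filter equals the main fit, since filterByExpr kept all 19469 genes, and so adds no information.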

Additional observations from a re-analysis of the deposited data

How the results depend on the processing

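The number of genes called over 5 libraries, 1473, became 674 when L1high replicate 3 replaced replicate 1, 2363 with the replicate number as a block over all 6 libraries and 1799 with it over 5, and 389 (without L1high replicate 2) to 1649 when 1 library was left out. The replicate numbers do not establish a pairing, since the correlations of same-numbered libraries were 0.0743, 0.0906 and 0.208. Each library nevertheless correlated best with its own number. With library totals alone, 767 genes were higher and 713 lower, against 859 and 614. Of the members, 1 was called with DESeq2, which gave ADGRF1 no adjusted p. With at least 10 counts in every library, where ADGRF1 was not tested, 1 member was called. With any 1 L1low library left out, 2 were called. With an L1low library left out, 5 to 6 partners, 0 to 4 transducers and 0 to 1 neighbours of ADGRF1 were called by edgeR. Without L1low replicate 2, where 0 transducers and 0 neighbours were called, 5 transducers and 1 neighbour had an unadjusted p under 0.05. When L1high replicate 3 replaced replicate 1, edgeR called 0 transducers and 0 neighbours, with 7 and 1 at an unadjusted p under 0.05. The replicate block called 5 transducers over 5 libraries and 5 over all 6. Of the 8 places in the order by level per length, 6 were kept with the longest transcript and 3 with the canonical one, which follows from the lengths.

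Of 125 log2 fold changes of the 8 members over the alternatives, 118 stayed within 1 SD of replicates. The sign varied for ADGRL1 (-0.13 to 0.099), ADGRE5 (-0.084 to 0.056), ADGRG6 (-0.17 to 0.0019) and ADGRA3 (-0.00053 to 0.22). Among other genes, none of them called in these fits, log2 fold changes with a library left out ran from -0.14 to 0.069 for CELSR2, -0.81 to 0.14 for ADGRD2, -0.22 to 0.23 for FLRT2 and -0.061 to 0.057 for TGM2. CELSR2 gave 0.015 with the block over 5 libraries, and CELSR3 gave -0.026 when L1high replicate 3 replaced replicate 2. TGM2 gave -0.069 over all 6 libraries, -0.10 with either replacement by L1high replicate 3, -0.061 and -0.071 with the block over 5 and 6 libraries, -0.0017 with DESeq2 and with RLE factors and -0.013 with library totals. Of 393 values of 25 other named genes over the alternatives, 356 kept direction and call, 19 lost and 3 gained the call. The causes were not tested. Depth limits genes such as ADGRF1, ADGRB2, ADGRF3 and COL3A1, with counts of 5 to 60 per library.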
